A study of Mus musculus with 11 samples.

Results

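Peg10 and 7 other genes that mammals domesticated from the gag region of retrotransposons were followed in spinal cord and fetal fibroblasts of Morc2a S87L mice. The 8 genes were taken by name from the 55487 gene identifiers of the deposited table: Peg10, Ldoc1, Rtl5, Rtl6, Rtl8a, Rtl8b, Pnma1 and Pnma2, and all 8 were found. The groups were 3 libraries of S87L spinal cord and 3 of wild-type spinal cord, and 2 libraries of S87L mouse fetal fibroblasts (MEF, cells grown in primary culture from fetal tissue) and 3 of wild-type MEF. S87L mice were heterozygotes for the p.S87L allele of Morc2a, in which leucine replaces a serine in the ATPase domain of the protein. MORC2A acts on chromatin together with the HUSH silencing complex. Both genotypes were C57BL/6, and the labels list no other allele and no treatment for either. Age, sex, and whether libraries came from separate animals or cultures are not given there, so a p-value here reflects the spread between libraries alone, and that spread may be technical.

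Gag is the protein from which retroviruses and related retrotransposons build their capsid. A set of mammalian genes descends from such gag sequences: PEG10, LDOC1 and the RTL proteins from one family of long terminal repeat retrotransposons, and the PNMA proteins from related elements. Peg10 is imprinted, is expressed from the paternal allele and is needed for the mouse placenta. Its protein keeps a gag part and, through a ribosomal frameshift, a gag-pol part. HUSH and MORC2 are known for silencing retrotransposons and genes derived from them.

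Peg10 RNA was 1.46 times as high in S87L as in wild-type spinal cord and 2.01 times as high in S87L as in wild-type MEF. Rtl8a and Rtl8b moved the other way, to about 0.7 of the wild-type level in both tissues. The Rtl8a difference in MEF no longer passed the test threshold without any 1 wild-type library. Rtl5 and Rtl6 had means lower by less. Rtl6 passed the threshold in neither tissue, and Rtl5 passed in cord alone, but not when any 1 cord library was left out. Ldoc1 and Pnma2 did not differ beyond the spread of the cord libraries, and Pnma1 was under the level set for testing.

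Gene models were compared first, as a description. The 8 genes were chosen by gag descent, so a shared gene structure is not independent of that choice. In the GENCODE annotation of GRCm38, 7 of the 8 genes (87.5%) had a single coding exon in every coding transcript, against 15.5% of all 21897 protein-coding genes. The exception was Peg10 (chr6:4747306-4760517, plus strand), with up to 2 coding exons. Of the 8 genes, 4 lay on chromosome X, where 4.24% of all protein-coding genes lie: Ldoc1 (chrX:61709497-61710955, plus strand), Rtl5 (chrX:102066544-102071304, minus strand), Rtl8a (chrX:53642488-53643682, minus strand) and Rtl8b (chrX:53669177-53670408, minus strand). The other 3 were Rtl6 (chr15:84553398-84557823, minus strand), Pnma1 (chr12:84146131-84148489, minus strand) and Pnma2 (chr14:66911170-66921023, plus strand). Another copy, Rtl8c (chrX:53608032-53608432, plus strand), lay 34055 bases from Rtl8a, which lay 25494 bases from Rtl8b. The Rtl8a and Rtl8b coding sequences were identical over all 339 bases, and their transcripts shared a run of 770 bases. Rtl8c, with 336 coding bases, had 81.3% identity to either. How reads that match both Rtl8a and Rtl8b were counted is not stated in the labels or files, so the split between these 2 genes is uncertain.

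The promoters of Rtl5, Rtl6 and the Rtl8 copies are shown because these genes had lower means in S87L libraries of both tissues. RefSeq's table for GRCm38.p6 held a promoter for 6 of the 8 genes and none for Peg10 or Pnma2. Each line gives the 130 bases before and the 20 bases from the RefSeq start site, in the direction of transcription, and capitals mark the 8 letters ACTTCCGG, which hold the core of sites bound by ETS family factors. The windows are chrX:102071288-102071437 (minus strand) for Rtl5, chr15:84557804-84557953 (minus strand) for Rtl6, chrX:53643744-53643893 (minus strand) for Rtl8a, chrX:53670418-53670567 (minus strand) for Rtl8b and chrX:53607792-53607941 (plus strand) for Rtl8c.
Rtl5: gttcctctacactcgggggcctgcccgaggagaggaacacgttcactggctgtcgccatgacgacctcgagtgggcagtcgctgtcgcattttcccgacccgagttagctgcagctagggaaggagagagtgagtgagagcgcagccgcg
Rtl6: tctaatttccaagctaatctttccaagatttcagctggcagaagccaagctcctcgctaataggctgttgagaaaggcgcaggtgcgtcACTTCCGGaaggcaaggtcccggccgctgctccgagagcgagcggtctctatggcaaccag
Rtl8a: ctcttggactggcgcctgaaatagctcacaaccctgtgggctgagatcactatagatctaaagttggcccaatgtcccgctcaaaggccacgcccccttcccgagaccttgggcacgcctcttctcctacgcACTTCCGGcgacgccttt
Rtl8b: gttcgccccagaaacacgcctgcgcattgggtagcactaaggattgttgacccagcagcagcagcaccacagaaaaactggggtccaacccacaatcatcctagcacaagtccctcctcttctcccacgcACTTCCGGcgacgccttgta
Rtl8c: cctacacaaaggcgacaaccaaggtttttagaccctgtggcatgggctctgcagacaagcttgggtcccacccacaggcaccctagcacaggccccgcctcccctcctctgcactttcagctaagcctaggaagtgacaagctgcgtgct
The letters ACTTCCGG or their reverse complement CCGGAAGT stood in the 300-base windows of 3 of the 6 genes with an entry and in 3.89% of all 32851 windows. These letters were chosen after the sequences had been read, so the difference between these shares is no support for a shared site. They began at base -41 in Rtl6, at base 3 in Rtl8a and at base 1 in Rtl8b, counted from 1 at the start site. The windows of Ldoc1, Rtl5, Pnma1 and Rtl8c did not hold them. The bases just before and just after the letters were the same in Rtl8a and Rtl8b, so the finds in these windows are not independent. Despite their identical coding sequences, the 300-base windows of Rtl8a and Rtl8b shared no run longer than 27 bases, while those of Rtl8b and Rtl8c shared a run of 44 bases. The number of CG pairs per window ran from 9 in Rtl8a to 23 in Pnma1 over the 6 genes, against a median of 7.0 over all windows.

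The libraries held 19.39 to 23.53 M reads in S87L spinal cord, 15.35 to 18.96 M in wild-type spinal cord, 12.08 to 14.46 M in S87L MEF and 14.29 to 15.05 M in wild-type MEF, as recovered from the steps of the FPKM values (read fragments scaled by gene length and library size). Summed FPKM of 8 neuron markers was 1720 to 1750 in S87L and 1770 to 1780 in wild-type spinal cord, and 36.5 to 39.0 in S87L and 30.5 to 32.3 in wild-type MEF. Summed FPKM of 7 fibroblast markers was 3260 to 3520 in S87L and 3770 to 3790 in wild-type MEF, so the markers stood with the labelled tissue. The MEF groups still differed: 3 of these 7 were called lower in S87L (limma adjusted p under 0.05) and 0 higher. Of 3 neuron markers tested in MEF, 2 were called higher and 0 lower. Over all genes tested in MEF, 4.91% were called higher and 6.32% lower. Lum averaged 21.5 FPKM in S87L and 50.1 in wild-type MEF, and Ogn 95.5 and 94.1. S87L spinal cord also had more of several markers from tissue around the cord. Its 7 skeletal muscle markers summed to 66.1 to 70.3 FPKM, against 13.4 to 17.3 in wild-type cord, and all 7 rose. The 7 meningeal and fibroblast markers summed to 45.7 to 47.2 in S87L and 24.5 to 25.6 in wild-type cord, and 6 of 7 rose. Summed Schwann cell markers were 27.9 to 29.7 in S87L and 14.9 to 17.9 in wild-type cord (2 of 3 tested rose), and those of microglia, the macrophages of the cord, were 162 to 172 in S87L and 132 to 142 in wild-type cord (4 of 6 rose). Of 5 red blood cell markers 3 rose. Among 6 astrocyte markers 2 rose and 1 fell, and among 6 oligodendrocyte markers 1 rose. Of 8 neuron markers 2 fell, and of 5 endothelial markers 1 fell. Over all genes tested in cord, 5.17% were called higher and 7.71% lower. The part of these tissues and cell types in the results below was not tested. Fewer cells of a type and less RNA per cell cannot be told apart in these bulk libraries. Morc2a itself averaged 4.86 ± 0.13 FPKM in S87L and 5.66 ± 0.05 in wild-type cord (SD, n = 3 each), and 16.4 ± 0.01 in S87L (n = 2) and 18.6 ± 0.25 in wild-type MEF (n = 3).

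Differences between genotypes were taken as log2 fold changes, S87L minus wild-type, from limma fits of log2(FPKM + 0.5), with the standard error (SE). Genes with a mean of at least 0.5 FPKM in the libraries of the fit were tested, and p-values were adjusted over all of them by the method of Benjamini and Hochberg; called means an adjusted p under 0.05. The 8 genes were chosen by name among genes of gag descent with the genotype differences of their FPKM values in these libraries already known, so those differences are a description and carry no p-value. In spinal cord 7 of the 8 passed the level filter: Peg10 was called higher, Rtl5, Rtl8a and Rtl8b were called lower, and Ldoc1, Rtl6 and Pnma2 were not called. Of all 15648 genes tested there, 5.17% were called higher and 7.71% lower, 12.9% in all. In MEF 5 of the 8 passed: Peg10 was called higher, Rtl8a and Rtl8b lower, and Rtl5 and Rtl6 were not called. Of the 13773 genes tested in MEF, 4.91% were called higher and 6.32% lower, 11.2% in all. The median log2 fold change was -0.18 over the 7 genes in cord and -0.25 over the 5 genes in MEF, against -0.02 and -0.01 over all genes tested. With so few libraries, the groups of a gene can lie apart without a genotype difference. The share of all genes whose groups do not overlap is not given here, so groups that lie apart are only described below.

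**Figure D1:**
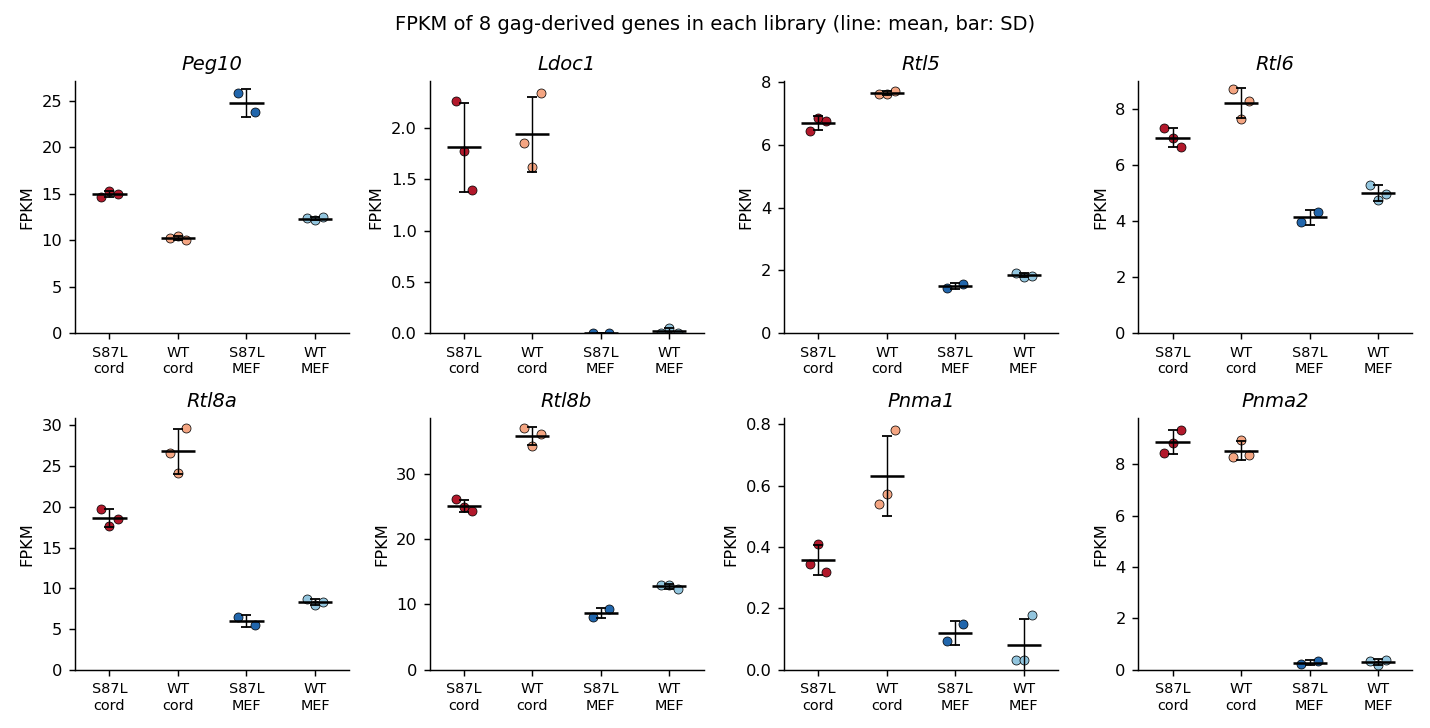
FPKM of the 8 gag-derived genes (vertical axes, each with its own scale) in every library, by genotype and tissue; points are libraries, the horizontal line is the group mean and the bar is the SD. Peg10 is higher in all S87L libraries than in the wild-type libraries of the same tissue, and Rtl8a and Rtl8b are lower in all of them.

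Peg10, whose protein binds RNA and forms virus-like particles, was the only one of the 8 genes called higher. It stood at 14.6, 15.3 and 14.9 FPKM in the S87L cord libraries, against 10.2, 10.5 and 10.1 FPKM in the wild-type cord libraries. All 3 S87L libraries lay above all wild-type ones, and the spread within each genotype was small. The mean was 14.9 ± 0.36 in S87L and 10.3 ± 0.20 in wild-type cord (SD, n = 3 each), a ratio of 1.46 and a log2 fold change of 0.52 (SE 0.04). In MEF it stood at 25.9 and 23.7 FPKM in S87L libraries, against 12.3, 12.1 and 12.5 FPKM in wild-type libraries. These groups were also apart, with a ratio of the means of 2.01 and a log2 fold change of 0.98 (SE 0.05). The values rested on 6093 reads in S87L and 3251 in wild-type cord, and on 4198 in S87L and 3420 in wild-type MEF. The MEF difference exceeded the cord difference by 0.46 on the log2 scale (SE 0.06), and Peg10 was the only one of the 5 genes tested in both tissues whose genotype difference was called as different between the tissues. Of all 15811 genes tested for such a difference, 6.14% were called with a higher and 6.98% with a lower log2 fold change in MEF, 13.1% in all.

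Rtl8a and Rtl8b encode small proteins that keep only a gag-like part, and human RTL8 is a known partner of the proteasome shuttle factor UBQLN2. Rtl8b, the highest of the 8 genes in spinal cord, stood at 26.1, 24.9 and 24.3 FPKM in S87L libraries, against 37.0, 34.3 and 36.1 FPKM in wild-type libraries. The 3 S87L values lay well below the 3 wild-type values, with a ratio of the means of 0.701 and a log2 fold change of -0.50 (SE 0.04). Rtl8a stood at 19.8, 17.6 and 18.6 FPKM in S87L cord, against 26.6, 24.2 and 29.7 FPKM in wild-type cord. These groups did not overlap either, at a ratio of 0.694 and a log2 fold change of -0.51 (SE 0.08).

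In MEF the Rtl8 copies were lower than in cord in both genotypes, and both were lower in S87L than in wild-type libraries. Rtl8b stood at 8.12 and 9.26 FPKM in S87L MEF, against 13.0, 13.0 and 12.3 FPKM in wild-type MEF. Rtl8a stood at 6.49 and 5.46 FPKM in S87L MEF, against 8.64, 7.92 and 8.33 FPKM in wild-type MEF. Neither gene's groups overlapped, and the log2 fold changes were -0.53 (SE 0.07) for Rtl8b and -0.45 (SE 0.08) for Rtl8a. The MEF value minus the cord value was -0.03 (SE 0.08) for Rtl8b and 0.07 (SE 0.12) for Rtl8a, neither of them called. The call of Rtl8a in MEF was lost without wild-type replicate 1 (log2 fold change -0.42), 2 (-0.48) or 3 (-0.44). Because the coding sequences are identical, the 2 genes were also summed: the sum was 45.9, 42.5 and 42.9 FPKM in S87L cord, against 63.6, 58.6 and 65.8 FPKM in wild-type cord. In MEF it was 14.6 and 14.7 FPKM in S87L libraries, against 21.7, 20.9 and 20.6 FPKM in wild-type libraries. The ratio of the mean sums was 0.698 in cord and 0.696 in MEF.

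**Figure D2:**
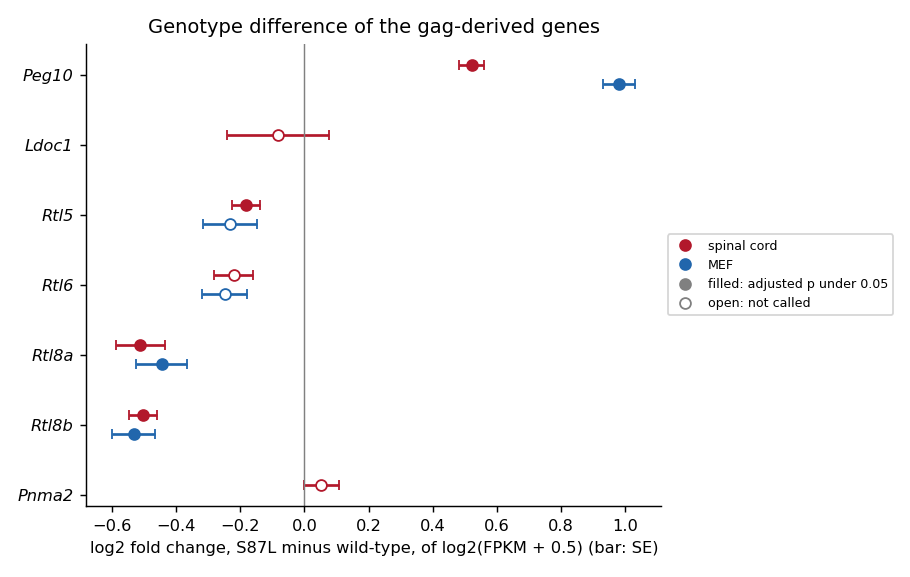
Log2 fold change (horizontal axis, S87L minus wild-type on the log2(FPKM + 0.5) scale) of the 7 gag-derived genes that passed the level filter in at least 1 tissue; bars are the SE and filled points were called. Peg10 lies at 0.52 in cord and 0.98 in MEF, and Rtl8a and Rtl8b lie between -0.45 and -0.53 in both.

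Rtl5 and Rtl6, which in the mouse brain are known from microglia, where their proteins take part in defence against viral RNA and bacterial lipopolysaccharide, had smaller differences. Rtl5 stood at 6.44, 6.86 and 6.76 FPKM in S87L cord, against 7.63, 7.61 and 7.72 FPKM in wild-type cord. The groups did not overlap, and the log2 fold change was -0.18 (SE 0.04). That call was lost when any 1 of the 6 cord libraries was left out, with log2 fold changes of -0.20 to -0.16, and under quantile (-0.16) or median ratio scaling (-0.14) of the libraries. Rtl6 stood at 7.31, 6.95 and 6.64 FPKM in S87L cord, against 8.71, 7.64 and 8.27 FPKM in wild-type cord. Its groups were apart as well, and at -0.22 (SE 0.06) it was not called; without wild-type replicate 2 it was called, at -0.27. In MEF, Rtl5 stood at 1.43 and 1.55 FPKM in S87L libraries, against 1.91, 1.79 and 1.83 FPKM in wild-type libraries. Rtl6 stood at 3.95 and 4.31 FPKM in S87L MEF, against 5.29, 4.74 and 4.95 FPKM in wild-type MEF. Neither gene's MEF groups overlapped, and neither difference was called (-0.23, SE 0.08, for Rtl5 and -0.25, SE 0.07, for Rtl6). The summed microglial markers are given above for cord, and were 113 to 121 in S87L and 140 in wild-type MEF. Within the MEF sum, Tmem119 averaged 43.5 FPKM in S87L and 58.4 in wild-type libraries, and P2ry12 averaged 0.587 and 0.674. The part of microglia in the Rtl5 and Rtl6 differences was not tested.

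Ldoc1, which regulates hormone production in the mouse placenta, showed no genotype difference beyond its spread. It stood at 2.26, 1.78 and 1.39 FPKM in S87L cord, against 1.85, 1.62 and 2.34 FPKM in wild-type cord, and the groups overlapped (log2 fold change -0.08, SE 0.16). The sign of that difference turned without S87L replicate 3 (0.05) or wild-type replicate 3 (0.03). In MEF it had 0 reads in the S87L libraries and 1 read in the wild-type libraries, where 3 reads would give up to 0.151 FPKM, so no difference was detectable.

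The paraneoplastic antigens Pnma1 and Pnma2 are named after antibodies found in patients with neurological syndromes, and PNMA2 is known to assemble into capsids. Pnma2 stood at 8.42, 8.81 and 9.35 FPKM in S87L cord, against 8.26, 8.94 and 8.37 FPKM in wild-type cord. The groups overlapped, at a log2 fold change of 0.05 (SE 0.05). In MEF it had 40 reads in S87L and 75 in wild-type libraries, which is 0.206 and 0.335 FPKM in S87L and 0.331, 0.184 and 0.384 FPKM in wild-type MEF, under the level filter. Pnma1 missed the filter in both tissues, in cord with means of 0.358 FPKM in S87L and 0.631 in wild-type libraries. With no filter, or without any single S87L cord library, Pnma1 entered the cord fit and was not called. It stood at 0.345, 0.411 and 0.318 FPKM in S87L cord, against 0.538, 0.573 and 0.782 FPKM in wild-type cord, from 52 reads in S87L and 70 in wild-type libraries. The cord groups did not overlap, on counts of 14 to 27 reads a library. In MEF it had 7 reads in S87L and 8 in wild-type libraries.

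The order of the 8 genes, whose FPKM is per length, differed between the tissues. In S87L cord it ran Rtl8b, Rtl8a, Peg10, Pnma2, Rtl6, Rtl5, Ldoc1 and Pnma1, with the libraries of Rtl6 and Rtl5 overlapping. In wild-type cord it was the same, with the libraries of Rtl6 overlapping those of both Pnma2 and Rtl5, which did not overlap each other, and ran from 35.8 ± 1.34 FPKM for Rtl8b to 0.631 ± 0.132 for Pnma1 (SD, n = 3). In S87L MEF Peg10 came first, at 24.8 ± 1.5 FPKM (SD, n = 2), ahead of Rtl8b at 8.69 ± 0.81. In wild-type MEF Rtl8b and Peg10 overlapped, at 12.8 ± 0.39 and 12.3 ± 0.15 FPKM (SD, n = 3). Rtl8a, Rtl6, Rtl5, Pnma2, Pnma1 and Ldoc1 followed in that order in both MEF groups.

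Wild-type cord was set against wild-type MEF. The genes were chosen with their genotype differences known, and the same wild-type libraries entered those. This contrast is therefore not independent of the choice, and its p-values are a description. Of the 5 genes above the level filter in both tissues, Rtl5, Rtl6, Rtl8a and Rtl8b were called higher in wild-type cord and Peg10 was called lower. Over all 15962 genes tested, 47.4% were called higher and 40.3% lower, 87.6% in all, so calls in this contrast were common. Rtl5 was 4.16-fold higher in cord (log2 fold change 1.80, SE 0.05, limma adjusted p = 8.05e-09), Rtl8a 3.24-fold (1.63, SE 0.08, 2.58e-07), Rtl8b 2.8-fold (1.45, SE 0.04, 1.78e-08) and Rtl6 1.64-fold (0.66, SE 0.06, 2.2e-05). Peg10 averaged 10.3 FPKM in cord and 12.3 FPKM in MEF, a ratio of 0.833 (-0.25, SE 0.04, adjusted p = 2.94e-04). These 5 calls held when any 1 wild-type library was left out. Ldoc1 and Pnma2 passed the level filter through cord alone, so their higher level there is given without a p-value. Ldoc1 averaged 1.94 FPKM in wild-type cord and had 1 read in wild-type MEF. Pnma2 averaged 8.52 FPKM in wild-type cord and 0.30 FPKM in wild-type MEF. Tissue and cell culture cannot be told apart in this contrast.

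Other genes of gag descent were read from a wider list of 18, of which 17 were found in the table. This list and the lists of neighbours, regulators and HUSH partners below were chosen with earlier results of these data known. Their counts and p-values are therefore a description and no independent support for the 8 genes. In spinal cord 11 were tested: 0 were higher, 5 were lower and 6 were not called (median log2 fold change -0.17, against -0.02 over all genes, of which 5.17% were called higher and 7.71% lower). Rtl8c had the highest level, at 231, 216 and 209 FPKM in S87L cord, against 286, 247 and 255 FPKM in wild-type cord, over a short gene model of 401 bases. Its groups did not overlap (-0.26, SE 0.06, limma adjusted p = 0.0336), and the call was lost without any 1 S87L library or wild-type replicate 3 (adjusted p up to 0.106). Pnma3, a relative of Pnma2, stood at 4.61, 4.32 and 4.28 FPKM in S87L cord, against 5.89, 6.39 and 5.34 FPKM in wild-type cord. All S87L values were below all wild-type ones (-0.38, SE 0.07, adjusted p = 0.0155; 0.062 without S87L replicate 2). Pnma8a stood at 15.6, 16.3 and 16.1 FPKM in S87L cord, against 18.7, 19.4 and 21.3 FPKM in wild-type cord. It fell as well (-0.30, SE 0.05, adjusted p = 0.014; 0.0581 without S87L replicate 1). Zcchc12 and Zcchc18, zinc knuckle relatives of the PNMA genes of which ZCCHC12 is a coactivator in BMP signalling, fell by less. Zcchc12 averaged 35.6 ± 1.03 FPKM in S87L and 40.3 ± 0.88 in wild-type cord (SD, n = 3 each; -0.18, adjusted p = 0.0229), and the call was lost without S87L replicate 1 or 2 or wild-type replicate 1 or 3 (0.0508 to 0.101). Zcchc18 averaged 44.5 ± 0.44 in S87L and 49.1 ± 0.76 in wild-type cord (SD, n = 3 each; -0.14, adjusted p = 0.0271), and no call remained when any single cord library was left out (0.0534 to 0.108). Median ratio scaling also ended the calls of Zcchc12 (adjusted p = 0.0568) and Zcchc18 (0.0782). Arc, the neuronal gag-derived gene that shapes synapses, was not called (-0.21, SE 0.08, adjusted p = 0.135).

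In MEF 9 genes of the wider list were tested: 0 were higher, 3 were lower and 6 were not called (median log2 fold change -0.15, against -0.01 over all genes, of which 4.91% were called higher and 6.32% lower). Rtl3 had the highest level of all gag-derived genes there. It stood at 30.8 and 26.5 FPKM in S87L MEF, against 47.5, 48.9 and 47.8 FPKM in wild-type MEF. The groups were far apart, at a ratio of 0.596 and a log2 fold change of -0.74 (SE 0.06, limma adjusted p = 0.00214), and the call held without each MEF library in turn. Rtl3 had 1 read in S87L and 2 reads in wild-type cord, so it could not be compared there. Ccdc8, a partner of CUL7 and OBSL1 in growth control, stood at 9.24 and 8.64 FPKM in S87L MEF, against 11.6, 10.5 and 11.7 FPKM in wild-type MEF. It fell (-0.32, SE 0.07, adjusted p = 0.0296), and the call was lost without wild-type replicate 1 or 3 or either S87L library (0.0633 to 0.101). Pnma8b, listed as Pnmal2 in the annotation, stood at 0.874 and 1.05 FPKM in S87L MEF, against 1.85, 1.47 and 1.61 FPKM in wild-type MEF. It fell (-0.55, SE 0.12, adjusted p = 0.0348), and no call remained when any single MEF library was left out (0.0518 to 0.129). Rtl8c stood at 6.51 and 9.99 FPKM in S87L MEF, against 16.8, 13.9 and 16.7 FPKM in wild-type MEF, on counts of 36 to 96 reads. The groups did not overlap, and at -0.92 (SE 0.20, adjusted p = 0.0518) it missed the threshold; without S87L replicate 2 it was called (-1.21, adjusted p = 0.0134). Rtl1, the imprinted gag-derived gene of the Dlk1-Meg3 locus, was under the level filter, with 160 reads in S87L and 159 in wild-type cord.

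**Figure D3:**
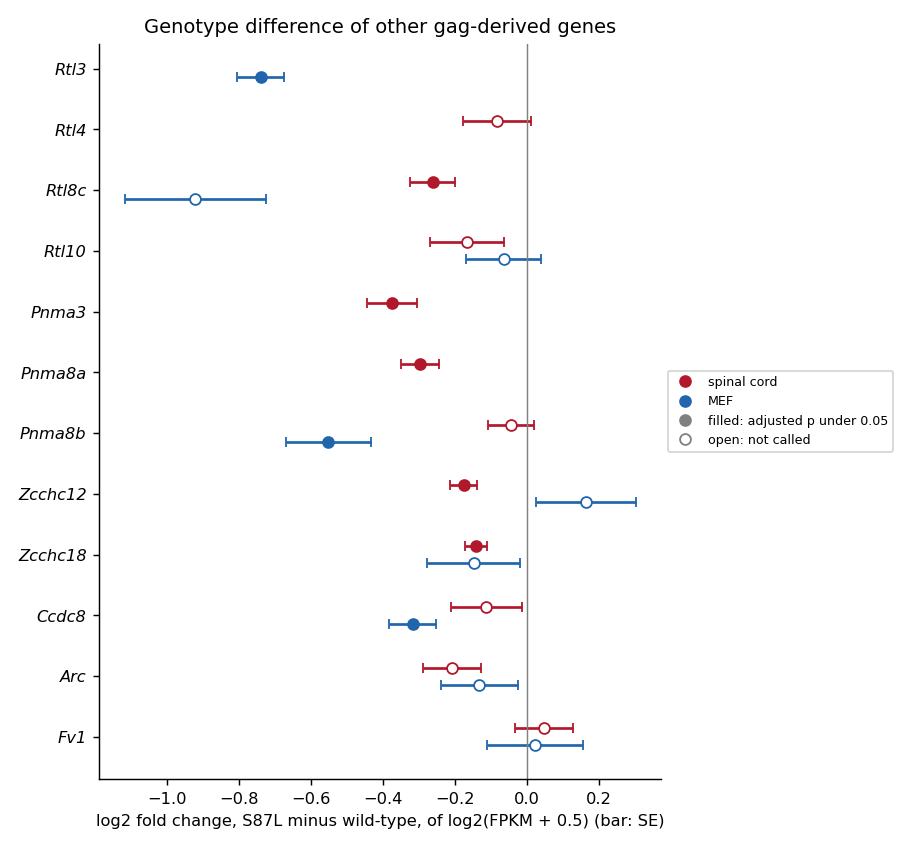
Log2 fold change (horizontal axis, S87L minus wild-type on the log2(FPKM + 0.5) scale) of the other gag-derived genes that passed the level filter in at least 1 tissue; bars are the SE and filled points were called. Filled points lie below 0 in both tissues, from -0.14 for Zcchc18 in cord to -0.74 for Rtl3 in MEF.

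Genes with the same structure or on the same chromosome were counted as background for these falls. Among protein-coding genes with a single coding exon, 8.52% of 810 tested in cord were called lower and 4.81% higher, against 7.24% and 5.84% of those with more coding exons. In MEF the single-exon genes were called lower in 10.8% and higher in 5.6% of 679 tested, against 6.65% and 5.39% of the rest. On chromosome X, 10.6% of 452 protein-coding genes tested in cord were called lower and 3.32% higher, against 7.2% and 5.87% elsewhere. In MEF the X-linked share was 7.04% lower and 11.2% higher, of 412 tested, against 6.89% lower and 5.2% higher elsewhere. Xist, the RNA of the inactive X, stood at 17.3 to 18.9 FPKM in S87L and 23.6 to 28.3 in wild-type cord, and at 38.0 to 44.0 in S87L and 35.0 to 35.9 in wild-type MEF. The Y-linked genes Ddx3y, Kdm5d, Eif2s3y and Uty were at or under 0.0206 FPKM in all 11 libraries.

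The neighbours of Peg10 on chromosome 6 were read next, because imprinted genes lie in clusters. Sgce, an imprinted gene for a membrane glycoprotein, starts head to head with Peg10, 98 bases away (chr6:4674350-4747207, minus strand). It stood at 3.51, 3.86 and 3.62 FPKM in S87L cord, against 3.70, 3.33 and 3.56 FPKM in wild-type cord. The groups overlapped (0.05, SE 0.06, limma adjusted p = 0.648). In MEF Sgce stood at 3.22 and 3.51 FPKM in S87L libraries, against 3.08, 3.06 and 2.87 FPKM in wild-type libraries. There the S87L values were slightly higher without a call (0.14, SE 0.07, adjusted p = 0.256). Of 13 neighbours listed, 9 were tested in cord, where 3 rose and 0 fell, and 9 in MEF, where 1 rose and 0 fell; over all genes 5.17% were called higher in cord and 4.91% in MEF. In cord these were Pon2, a lactonase gene (0.23, adjusted p = 0.0236), Col1a2, a collagen chain gene that is also among the meningeal and fibroblast markers (0.63, 0.00216), and Pdk4, the gene of a pyruvate dehydrogenase kinase (0.79, 8.71e-05). The call of Pon2 was lost without any 1 S87L library or wild-type replicate 2 or 3 (0.0677 to 0.0769). In MEF the one that rose was Tfpi2, a protease inhibitor gene, at 2.16 and 2.14 FPKM in S87L libraries, against 1.09, 1.01 and 1.31 FPKM in wild-type libraries (0.70, SE 0.11, adjusted p = 0.0136), and its call was lost without S87L replicate 1 or wild-type replicate 1 (adjusted p up to 0.0665). Casd1 and Ppp1r9a, the nearest neighbours beyond Sgce, were not called in cord (-0.05 and -0.08).

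**Figure D4:**
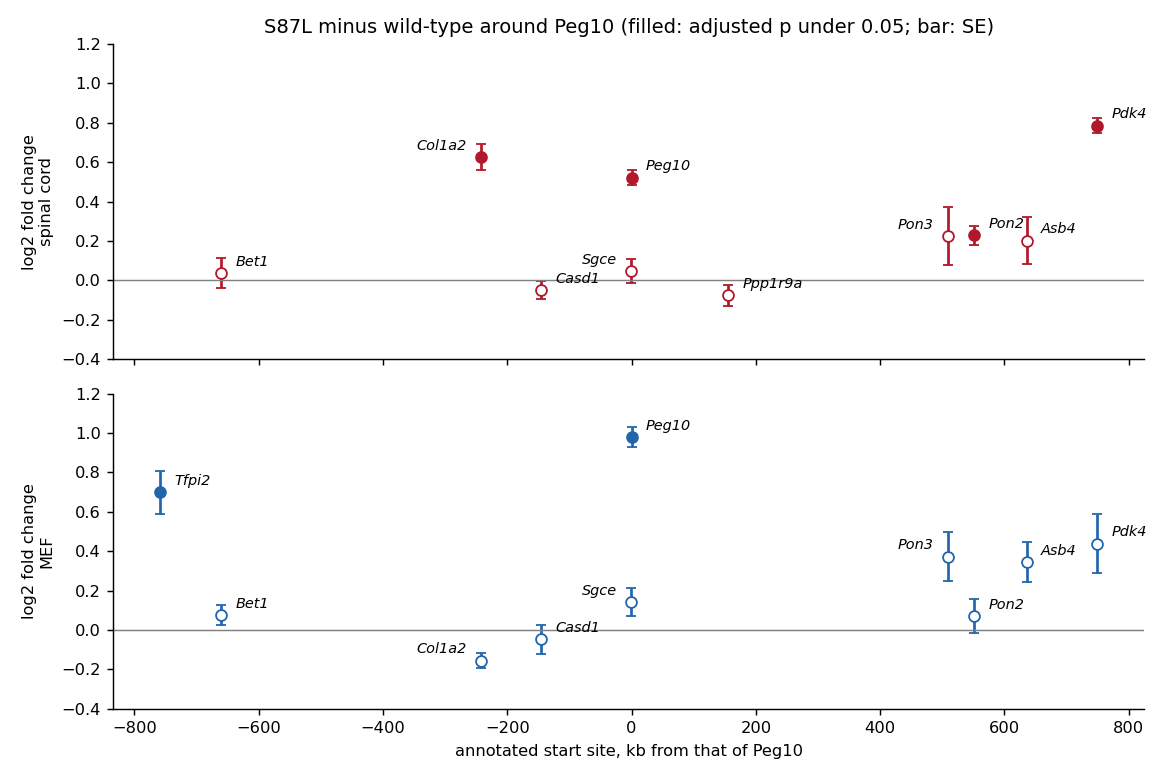
Log2 fold change (vertical axes, S87L minus wild-type) of Peg10 and its neighbours on chromosome 6 against the distance of their annotated start sites from that of Peg10 in kb (horizontal axis), in spinal cord above and MEF below; bars are the SE and filled points were called. Peg10 is called in both panels while Sgce, at the same place, lies at 0.05 in cord and 0.14 in MEF.

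Genes whose proteins are reported to set the level of PEG10 protein were few. Ubqln2, the shuttle factor linked to human motor neuron disease, stood at 56.2, 58.1 and 53.8 FPKM in S87L cord, against 49.9, 49.4 and 50.02 FPKM in wild-type cord. It rose by 0.17 on the log2 scale (SE 0.04, limma adjusted p = 0.0273), and leaving out a cord library ended the call in 5 of 6 cases, S87L replicate 3 being the exception (adjusted p up to 0.112), as did quantile scaling (0.0677). The ubiquitin ligase gene Ube3a (0.16, adjusted p = 0.235) and the deubiquitinase gene Usp9x (0.01, 0.96) were not called in cord. None of these 3 was called in MEF, where the log2 fold changes were 0.10 to 0.24 (adjusted p = 0.12 to 0.357). Over all genes tested, 12.9% were called in cord and 11.2% in MEF. A single call in a list of 3 or 7 genes is therefore no result about the list. Of 7 genes of the HUSH complex and its partners, Morc2a alone was called, lower in cord (-0.20, adjusted p = 0.0269) and in MEF (-0.17, adjusted p = 0.0421). Both calls depended on single libraries: in cord the call was lost without any library but wild-type replicate 1 (adjusted p up to 0.094) and under quantile or median ratio scaling (0.071 and 0.0595), and in MEF without any 1 of the 5 (0.062 to 0.161).

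The genes most like Peg10 were ranked by Pearson's r of log2(FPKM + 0.5) over the 11 libraries, each taken minus the mean of its tissue, among 10007 genes with at least 1 FPKM on average in both tissues. The first 5 were Nab1 (r = 0.974), Kif5b (0.973), Cavin2 (0.972), Msn (0.97) and Errfi1 (0.968), which share the libraries and their depth. The genotype difference of Peg10 stays in these values, so r ranks genes with a similar pattern between genotypes. Shared regulation was not tested. Cavin2, a caveola coat gene, differed by 0.49 in cord and 0.72 in MEF, and Errfi1, a feedback inhibitor of the EGF receptor, by 0.55 and 0.64 (log2 fold changes, S87L minus wild-type). Nab1, Kif5b (a kinesin heavy chain gene) and Msn (the gene of the actin linker moesin) had smaller differences in both tissues, from 0.07 for Msn in cord to 0.43 for Kif5b in MEF.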

How the data were processed

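RNA sequencing libraries of 11 samples were grouped by their titles. The authors deposited 1 table of FPKM values. The submitters' processing notes name GRCm38 and the tools HTSeq 0.11.3, Picard 2.25.5, HISAT2 2.2.1 and Trimmomatic 0.39, with no settings; libraries were stranded per the labels' protocols. The annotation release and whether strand entered the counting are not stated there. Symbols came from GENCODE M21 and RefSeq, and 55141 identifiers were found in the GENCODE annotation. Whole reads were recovered from the FPKM steps and the annotated gene lengths for 98.51% to 98.6% of values per library (tolerance 0.05 read); they give depth only. Replicates of a group differed beyond counting noise (chi-square per degree of freedom 1.26 to 4.67), and each counted as 1.

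Each tissue was fitted with limma (version 3.58.1, under R 4.3.3, with trend and robust moderation, two-sided) on log2(FPKM + 0.5). Genes averaging at least 0.5 FPKM were kept, with Benjamini-Hochberg adjustment over all genes; a fold change on this scale understates the change of low genes. The tissue difference of the genotype effect was the interaction term of a fit of all 11 libraries. The fit was tested on simulated data. The 8 genes and the wider lists were chosen with earlier results of these data known. The text names all 8 genes and, from each wider list, the called members and otherwise up to 4 with the smallest p. Alternatives were pseudocounts of 0.1 and 1, other filters, scaling by quantiles or by median ratios, limma without trend and robust settings, a replicate block, and leaving out each library.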

Additional observations from a re-analysis of the deposited data

Results flagged for a closer look

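The following genotype differences, of listed genes tested in both tissues, differed between the tissues in the interaction term of the limma fit of all 11 libraries. Values are the MEF difference minus the spinal cord difference on the log2 scale. Rtl3 and Tfpi2 were also called in this term but were under the level filter in cord, as Pnma3 and Pnma8a were in MEF. Peg10 had 0.46 (SE 0.06), being higher in S87L libraries of both tissues. Its value comes from the contrasts with which the gene was chosen and carries no p-value here.

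Col1a2 had -0.78 (limma adjusted p = 1.77e-04): it averaged 6.31 ± 0.39 FPKM in S87L and 3.91 ± 0.28 in wild-type spinal cord (SD, n = 3 each), and 635 ± 22.5 in S87L (n = 2) and 708 ± 7.43 in wild-type MEF (n = 3). Pnma8b had -0.51 (limma adjusted p = 0.0195), at 88.1 ± 4.40 FPKM in S87L and 91.0 ± 7.35 in wild-type cord (SD, n = 3 each), against 0.962 ± 0.125 in S87L (n = 2) and 1.64 ± 0.195 in wild-type MEF (n = 3). Its call was lost under quantile normalization (-0.34, limma adjusted p = 0.0672), with the replicate number as a block (0.0728) and without S87L spinal cord replicate 1 (0.0509) or S87L MEF replicate 1 (0.0832). Zcchc12 had 0.34 (limma adjusted p = 0.0287), and in MEF averaged 0.770 ± 0.0997 FPKM in S87L (n = 2) and 0.633 ± 0.0725 in wild-type libraries (n = 3, SD), from 44 and 60 reads. Its call was lost with no filter on low values (limma adjusted p = 0.0577), with the replicate number as a block (0.0802) and without any 1 of 5 libraries: wild-type spinal cord replicates 1 and 3, S87L spinal cord replicates 1 and 2, and S87L MEF replicate 2 (0.0502 to 0.0895).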

How the results depend on the processing

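Of 279 values of the 8 genes under other settings, 260 kept direction and side of the threshold, 16 lost their call, 1 gained one and 2 turned sign, both for Ldoc1 in cord, which ran from -0.22 to 0.052 with 1 library left out (0.032 without wild-type replicate 3). Among 543 values of the other named genes, 450 kept both, 83 lost a call, 9 gained one and 1 turned sign (Pnma8b in cord, which ran from -0.086 to 0.021 with 1 library left out, positive without wild-type replicate 1). The Peg10 log2 fold change stayed called throughout, at 0.50 to 0.56 in cord and 0.92 to 1.04 in MEF, as did Rtl8a and Rtl8b in cord. Because the 8 genes were chosen with these differences known, their calls show only how the values depend on the settings. Rtl5 in cord also lost its call with no filter, quantile scaling (-0.16) and median ratio scaling (-0.14), and Rtl8a in MEF with no filter.

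Genes called in cord, 2016 over all libraries, numbered 838 to 1637 with 1 library left out. In MEF, 1547 became 788 with no filter and 565 to 1753 with 1 library left out. Interaction calls, 2075, numbered 1373 to 2261 with 1 library left out. Fewer libraries or more genes tested enter those fits. Median ratio scaling gave 1230 higher and 874 lower calls in cord, against 809 and 1207.

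Whether replicate numbers pair the samples is not known. In cord, deviations of same-numbered S87L and wild-type libraries correlated at 0.149, -0.051 and 0.111. Those of different-numbered cord libraries correlated at -0.199 to 0.087, and these few pairs do not settle pairing. In MEF the same-numbered values were -0.07 and -0.028. The deviations of the 2 S87L MEF libraries mirror each other, so the MEF values cannot decide pairing. With the replicate number as a block, calls numbered 1663 in cord, 182 in MEF and 1030 in the interaction. Under the block 1 of the 8 genes (Peg10) was called in MEF, against 3 without it: Rtl8a (-0.44) and Rtl8b (-0.56) were not, and Rtl5 in cord was not. Low counts limit Ldoc1, Pnma1 and Pnma2 in MEF and Rtl8c in MEF.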
